A study of Rattus norvegicus with 11 samples.

Results

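The 10 genes described here act in the breakdown of heme or in the binding and transport of hemoglobin and heme. These genes were measured in the striatum of 11 rats with or without collagenase-induced intracerebral hemorrhage. They are Hmox1, Hmox2, Blvra, Blvrb, Slc48a1, Cd163, Hp, Hpx, Lrp1 and Flvcr1. They were taken from the 30560 genes of the deposited table by gene symbol alone, and each symbol was carried by 1 gene. All 10 were among the 15742 genes with enough reads to be tested. The rats were adult male Sprague-Dawley animals, and tissue was taken on day 3. The IC group (common hemorrhage, 3 rats) received 0.2 U collagenase VII-S in 1.0 µL into the striatum. The IS group (severe hemorrhage, 3 rats) received 0.6 U in 3.0 µL. The IS-HA group (3 rats) received the IS injection, and 150 µL of hematoma was aspirated 6 h later. The Normal group (2 rats) had neither collagenase nor aspiration, so the injection itself and the hemorrhage cannot be told apart here. Dose and injected volume differed together between IC and IS, and catheter passage and hematoma removal cannot be told apart in IS-HA.

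Heme released from lysed red cells is an oxidant, and tissue disposes of it in steps. Haptoglobin (Hp) binds free hemoglobin, and the macrophage receptor CD163 takes up the complex. Hemopexin (Hpx) binds free heme, and LRP1 takes up that complex. Inside the cell, HRG1 (Slc48a1) moves heme out of the phagolysosome, and FLVCR1 exports heme. Heme oxygenases cleave heme into iron, carbon monoxide and biliverdin. HMOX1 is the inducible enzyme and HMOX2 the constitutive one, which neurons carry. Biliverdin reductases A and B (Blvra, Blvrb) reduce biliverdin to bilirubin, acting mainly on different isomers of it. In brain hemorrhage, microglia and infiltrating macrophages are the cells best known for this work.

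One library was made per rat from whole striatal tissue, with 6701301 (IS-HA replicate 2) to 18817645 (IC replicate 3) counted reads. A count of 3, taken as the floor of detection, corresponded to 0.159 to 0.448 CPM (counts scaled to library size). The tissue label held for its markers: 10 striatal neuron markers summed to 7227 to 7669 TPM (transcript abundance scaled for transcript length and library size) in Normal. The same sum was 3100 to 6055 TPM in IC, 1488 to 3877 TPM in IS and 1556 to 3300 TPM in IS-HA. IS-HA replicate 2 stood apart in its weight on the tests. Without it, the genes called in IS against IC went from 0 to 2241, and in IS-HA against IS from 1 to 695. Levels below are deposited TPM. Fold changes and p-values come from edgeR's quasi-likelihood test on the counts, adjusted by Benjamini-Hochberg over all genes tested, and a gene was called at an adjusted p under 0.05.

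Against Normal, no member was called lower in IC, IS or IS-HA, where 4.64%, 24.2% and 12.1% of all genes tested were. In IC, 2 of the 10 members were called higher (Hmox1 and Cd163), where 13% of all genes tested were called higher. In IS, 7 members were called higher (Hmox1, Cd163, Hp, Hpx, Blvra, Blvrb and Slc48a1) against 24.8% of all genes. In IS-HA, 3 were called higher (Hmox1, Cd163 and Blvra) against 19.5%. Hpx had to be high in IS to be tested at all, because it passed the read filter only through 2 IS rats. It is therefore left out of the counts over 9 members that follow, while counts over all 10 members include it. Of the other 9 members, 6 were called higher in IS. By normalised CPM, every rat of the group exceeded both Normal rats for 6 of these 9 in IC (32.4% of all genes tested), 7 in IS (37.6%) and 6 in IS-HA (31.7%). The median log2 fold change over the 9 members was 0.42 in IC, 1.00 in IS and 0.56 in IS-HA, beside 0.00 to 0.06 over all genes tested. The counts without single Normal rats were smaller. The share of all genes called higher fell as well. Without Normal replicate 3, 2 members were called higher in IS (beside 14% of all genes), 1 in IS-HA (7.62%) and 1 in IC (4.96%). Without Normal replicate 1, 1 member was called higher in IC (6.51%).

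**Figure D1:**
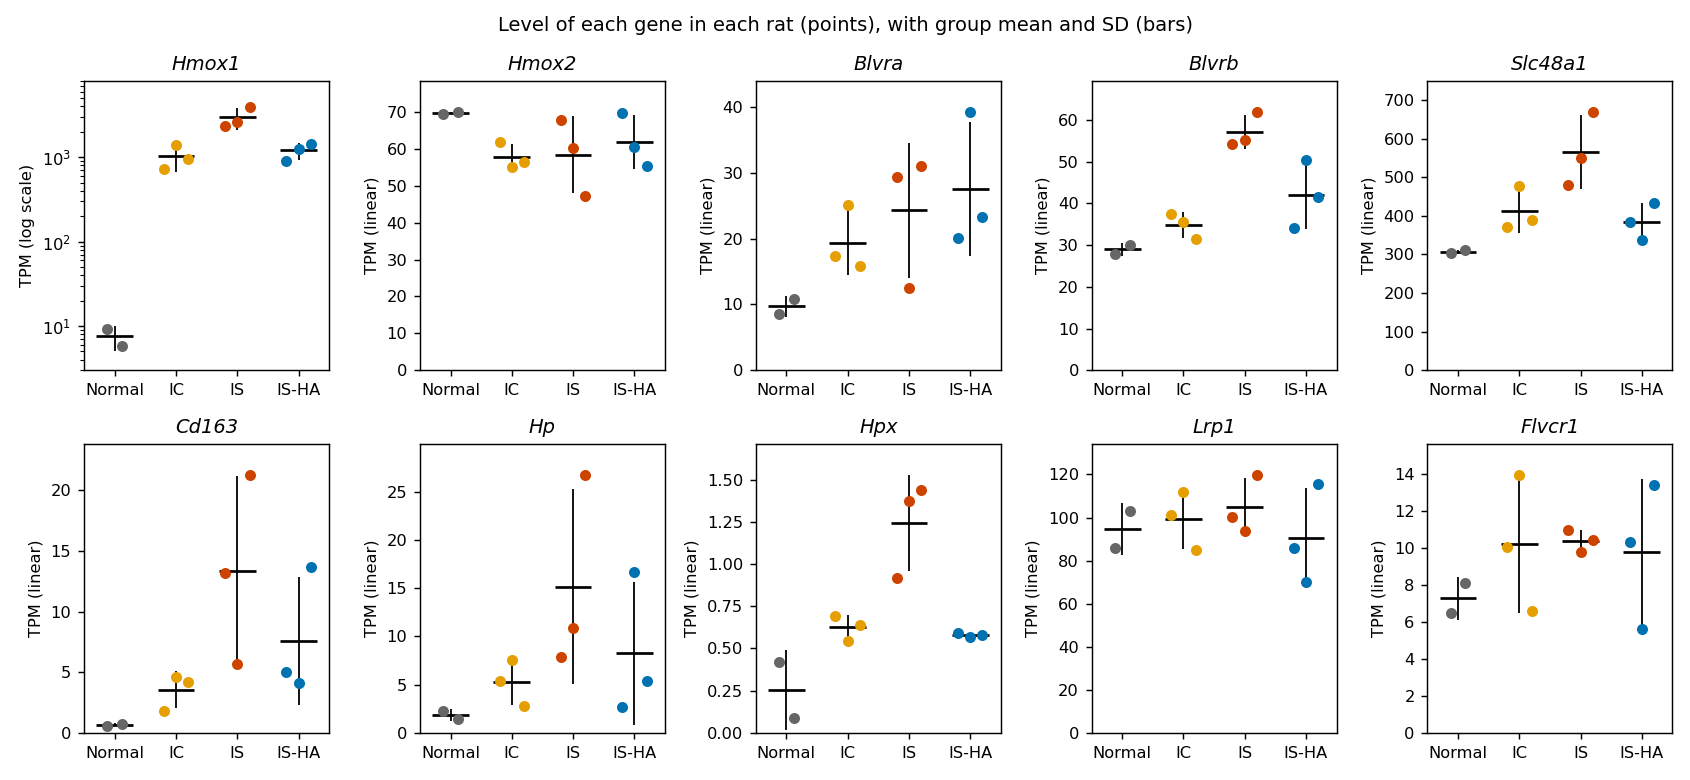
Level of each of the 10 genes in each of the 11 rats, in TPM. Each point is 1 rat, horizontal bars are group means and vertical bars SD, and the axis is logarithmic for Hmox1 and linear from 0 for the others. The IS rats sit between 2346 and 3992 TPM for Hmox1, above all other rats, while Hmox2 stays between 47.2 and 69.9 TPM in every rat.

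Hmox1 showed the widest range of the 10 genes. It stood at 9.34 and 5.76 TPM in the Normal rats. It stood at 719, 1416 and 941 TPM in the IC rats (replicates 2, 3 and 4), and at 2346, 2624 and 3992 TPM in the IS rats (replicates 2, 3 and 4). In the IS-HA rats (replicates 1, 2 and 3) it stood at 901, 1259 and 1455 TPM. Every hemorrhage rat was far above both Normal rats, every IS rat was above every IC and IS-HA rat, and IC and IS-HA overlapped. The groups therefore ran from Normal at 7.55 ± 2.53 TPM (SD, n = 2) over IC at 1025 ± 356 TPM (n = 3) and IS-HA at 1205 ± 281 TPM (n = 3) to IS at 2987 ± 881 TPM (n = 3). The neighbours IC and IS-HA did not differ beyond their spread. By TPM, Hmox1 ranked 9342 and 11319 among the 30560 genes in the Normal rats. It ranked 42 to 110 in IC, 22 to 30 in IS and 37 to 93 in IS-HA.

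Hmox1 rose against Normal in all hemorrhage groups. In IC the fit put it at 129-fold of Normal (log2 fold change 7.01, standard error 0.54, adjusted p = 0.000115). In IS it was 401-fold (log2 8.65, standard error 0.58, adjusted p = 3.13e-05). In IS-HA it was 158-fold (log2 7.31, standard error 0.55, adjusted p = 6.44e-05). Among the genes tested, Hmox1 ranked 45, 35 and 41 by log2 fold change in these comparisons. These calls held in each of the 21 alternative analyses of each comparison.

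Hmox2, the constitutive paralog, kept a narrow range. The Normal rats had 69.5 and 69.9 TPM. The IC rats had 61.8, 55.0 and 56.5 TPM, the IS rats 67.9, 60.3 and 47.2 TPM, and the IS-HA rats 69.8, 60.6 and 55.4 TPM. All IC and IS rats lay below both Normal rats, a pattern that 31.3% and 36.9% of all genes tested also showed. The log2 fold change against Normal was -0.33 in IC (95% interval -0.73 to 0.08), -0.25 in IS (-0.65 to 0.15) and -0.18 in IS-HA (-0.58 to 0.23), with adjusted p from 0.229 to 0.471.

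Hmox1 made up 9.73% ± 2.99 (SD, n = 2) of the summed TPM of both heme oxygenases in Normal. Its share was 94.2% ± 2.09 in IC, 97.9% ± 0.835 in IS and 94.9% ± 1.83 in IS-HA (n = 3 each). The ratio of Hmox1 to Hmox2 was 0.108 in Normal, 18.0 in IC, 54.2 in IS and 20.0 in IS-HA. The heme oxygenase transcripts thus changed from mostly Hmox2 to mostly Hmox1 in every rat with hemorrhage.

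The biliverdin reductases moved far less than Hmox1. Blvra had 8.57 and 10.8 TPM in Normal, 17.3, 25.1 and 15.8 TPM in IC, 29.4, 12.4 and 31.0 TPM in IS, and 20.2, 39.2 and 23.3 TPM in IS-HA. Every hemorrhage rat was above both Normal rats, and the hemorrhage groups overlapped, with IS replicate 3 the lowest rat among them. Blvra rose in IS (log2 fold change 1.34, standard error 0.47, adjusted p = 0.0363) and in IS-HA (1.55, standard error 0.48, adjusted p = 0.0314), and had 0.94 in IC (adjusted p = 0.176). The IS call was lost without Normal replicate 1 (adjusted p = 0.154), Normal replicate 3 (0.127), IC replicate 4 (just past 0.05), IS replicate 2 (0.0780) or IS replicate 4 (0.111), and with the replicate block (log2 fold change 0.71, adjusted p = 0.382). The IS-HA call was lost without Normal replicate 1 (0.142), Normal replicate 3 (0.142) or IS-HA replicate 2 (0.0714), with only the compared groups in the fit (0.0734) and with the replicate block (0.118). With only the compared groups, Blvra was called higher in IC (0.0208), where 19% of all genes then were.

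Blvrb was the more abundant reductase on average in every group. It had 27.9 and 30.1 TPM in Normal, 37.4, 35.6 and 31.5 TPM in IC, 54.2, 55.3 and 61.9 TPM in IS, and 34.1, 50.5 and 41.6 TPM in IS-HA. By TPM, all IS rats were above all rats of the other groups. By normalised CPM, IS-HA replicate 2 (52.5) exceeded IS replicate 2 (45.0) and IS replicate 3 (49.5). Blvrb rose in IS (log2 fold change 1.00, standard error 0.25, adjusted p = 0.00857), and this call was lost without Normal replicate 3 (adjusted p = 0.0647) and with the replicate block (log2 fold change 0.69, adjusted p = 0.155). It had 0.21 in IC (adjusted p = 0.591) and 0.56 in IS-HA (adjusted p = 0.111), the latter called without IS-HA replicate 1 (0.0363) and with library size alone (0.0433). Summed heme oxygenase TPM over summed reductase TPM was 2.01 ± 0.219 in Normal (SD, n = 2), 19.9 ± 5.11 in IC, 37.3 ± 7.57 in IS and 18.6 ± 4.33 in IS-HA (n = 3 each). This ratio joins both reductases, with Blvrb as the larger part, so it does not compare consecutive steps of the pathway.

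Slc48a1, the heme transporter of the phagolysosome, was the most abundant member in Normal. It had 303 and 310 TPM in Normal, 371, 476 and 390 TPM in IC, 479, 549 and 669 TPM in IS, and 383, 338 and 434 TPM in IS-HA. Every hemorrhage rat was above both Normal rats, and all IS rats were above all IC and IS-HA rats. Slc48a1 rose in IS by a log2 fold change of 0.91 (standard error 0.21, adjusted p = 0.00576), and the call was lost without Normal replicate 3 (adjusted p = 0.0593) and with the replicate block (0.0785). The log2 fold change was 0.37 in IC (adjusted p = 0.236) and 0.31 in IS-HA (adjusted p = 0.269). Hmox1 reached 2.44 ± 0.517 times the Slc48a1 TPM in IC, 5.22 ± 0.656 times in IS and 3.14 ± 0.713 times in IS-HA (SD, n = 3 each), from 0.0247 times in Normal.

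Flvcr1, the heme exporter, had 6.45 and 8.07 TPM in Normal, 10.1, 13.9 and 6.57 TPM in IC, 10.9, 9.75 and 10.4 TPM in IS, and 10.3, 5.60 and 13.4 TPM in IS-HA. The groups overlapped except that the IS rats lay above both Normal rats. It was called in no comparison (log2 fold change 0.42, 0.53 and 0.38 against Normal, adjusted p from 0.156 to 0.334). With only the compared groups in the fit, it was called higher in IS (adjusted p = 0.0472, beside 27.2% of all genes).

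Cd163, the receptor for haptoglobin-hemoglobin, was scarce in Normal, with 0.599 and 0.751 TPM. It had 1.83, 4.65 and 4.21 TPM in IC, 13.2, 5.71 and 21.3 TPM in IS, and 5.06, 4.10 and 13.7 TPM in IS-HA. All hemorrhage rats exceeded the Normal rats, and all IS rats exceeded all IC rats, while IS and IS-HA overlapped. Cd163 rose against Normal in IC (log2 fold change 2.35, standard error 0.70, adjusted p = 0.0411), in IS (4.34, standard error 0.74, adjusted p = 0.00109) and in IS-HA (3.43, standard error 0.72, adjusted p = 0.00572). The IC call was lost without Normal replicate 1 (adjusted p = 0.169), Normal replicate 3 (0.219), IC replicate 3 (0.120), IC replicate 4 (0.103) or IS replicate 2 (0.0546). It was also lost with limma voom and weights per rat (0.0737), with limma on log2(TPM + 1) (0.126) and with the replicate block (0.224). The IS-HA call was lost without Normal replicate 3 (0.0584).

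Hp, the hemoglobin-binding plasma protein made mainly in liver, had 2.32 and 1.42 TPM in Normal. It had 5.38, 7.58 and 2.82 TPM in IC, 7.84, 10.9 and 26.8 TPM in IS, and 2.73, 16.7 and 5.34 TPM in IS-HA. IS replicate 4 and IS-HA replicate 2 were the highest rats, and the hemorrhage rats all exceeded the Normal rats. Hp rose in IS (log2 fold change 3.05, standard error 0.90, adjusted p = 0.0170), a call lost without Normal replicate 1 (adjusted p = 0.0581), Normal replicate 3 (0.127) or IS replicate 4 (0.0548), and with the replicate block (log2 fold change 2.08, adjusted p = 0.250). It had 1.40 in IC (adjusted p = 0.266) and 2.21 in IS-HA (adjusted p = 0.0762). It was called higher in IC with only the compared groups (0.0302), and in IS-HA with DESeq2 (0.0166) or without IS-HA replicate 1 (0.0282). Of 10 hepatocyte markers, Ahsg was at 0 in all rats, Fgb did not exceed 0.102 TPM and Alb lay between 0 and 2.34 TPM. Ttr had 0.906 and 0.741 TPM in Normal, 0.428 to 10.6 in IC, 0.566 to 1.94 in IS and 3.26 to 15.6 in IS-HA. Apoa1 lay between 0.572 and 4.49 TPM, with the highest level in IS replicate 3. Nearly all of the summed TPM of the 10 markers was Tf, which oligodendrocytes also express. That sum was 378 to 510 TPM in Normal, 723 to 1314 TPM in IC, 753 to 797 TPM in IS and 625 to 1053 TPM in IS-HA.

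Hpx, the heme-binding plasma protein, was near the floor in every library. It had 5 and 1 counts in Normal, 7, 7 and 5 in IC, 7, 11 and 8 in IS, and 6, 3 and 4 in IS-HA, or 0.0859 to 1.44 TPM. In IS it differed from Normal by 2.23 on the log2 scale (standard error 0.64, adjusted p = 0.0150), which rests on these few reads and on a filter met only by IS rats, and it was lost without Normal replicate 3 (adjusted p = 0.136) and with the replicate block (0.0973).

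Lrp1, the receptor for hemopexin-heme and for many other ligands, had 86.0 and 103 TPM in Normal, 101, 112 and 84.8 TPM in IC, 100, 94.0 and 120 TPM in IS, and 85.7, 70.2 and 116 TPM in IS-HA. All groups overlapped. The log2 fold change against Normal was 0.01 in IC (95% interval -0.44 to 0.47), 0.17 in IS (-0.28 to 0.63) and -0.09 in IS-HA (-0.54 to 0.36), so a change of 1 on the log2 scale lies outside these intervals. The receptors of the pathway thus differed: Cd163 exceeded its Normal level in every hemorrhage rat, whereas Lrp1 was the more abundant receptor in every rat and overlapped between all groups.

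**Figure D2:**
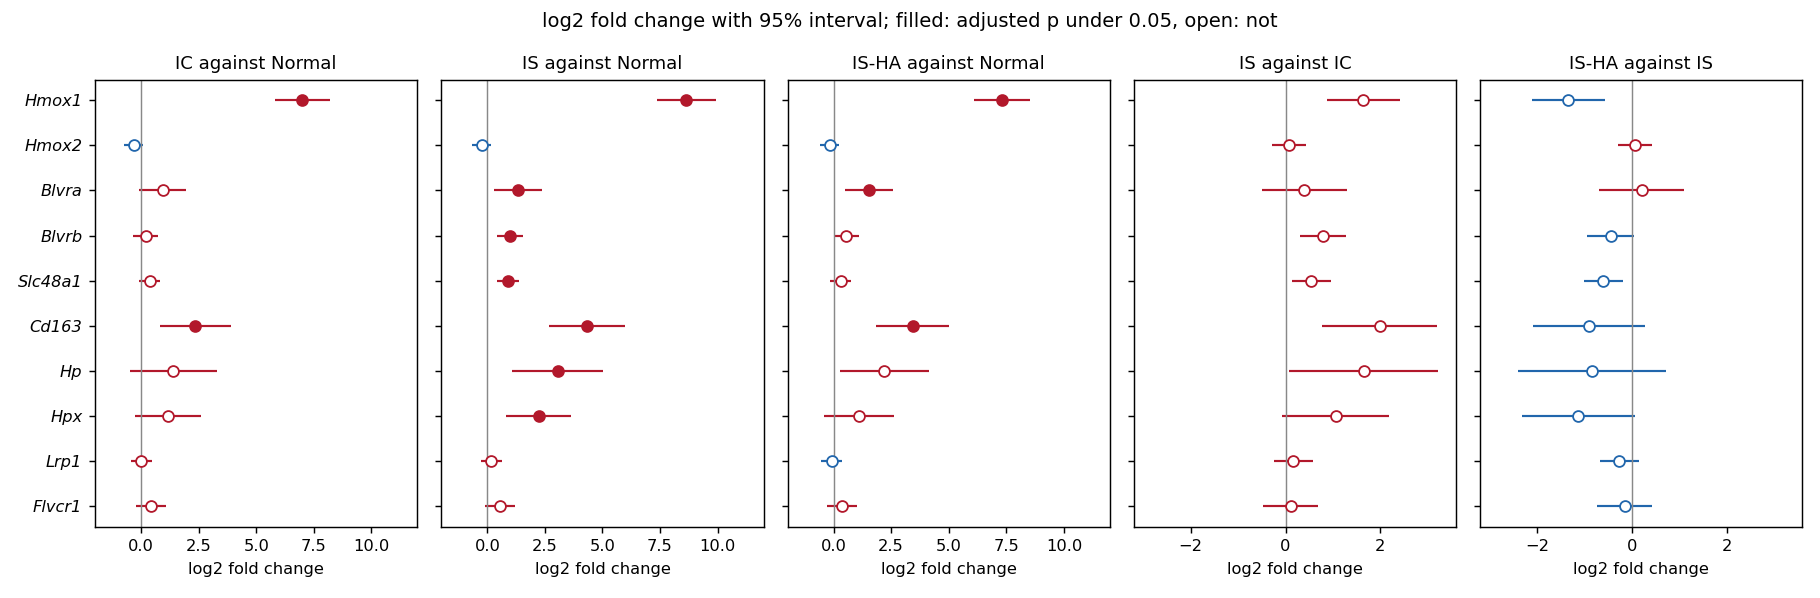
Fitted log2 fold change of each gene (points) with its 95% interval (bars) in 5 comparisons, red above 0 and blue below 0. The horizontal scale differs between the 3 comparisons with Normal and the 2 between hemorrhage groups. Filled points have an adjusted p under 0.05, and there are none in IS against IC or IS-HA against IS. The filled Hpx point in IS against Normal rests on few reads and on a filter met only by IS rats.

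The order of the members by mean TPM was similar across the hemorrhage groups. In Normal it ran Slc48a1, Lrp1, Hmox2, Blvrb, Blvra, Hmox1, Flvcr1, Hp, Cd163 and Hpx. In IC, IS and IS-HA, Hmox1 came first, followed by Slc48a1, Lrp1, Hmox2, Blvrb and Blvra. In IS, Hmox2 at 58.4 ± 10.5 TPM and Blvrb at 57.2 ± 4.17 TPM (SD, n = 3 each) did not differ beyond their spread. Hp and Cd163 passed Flvcr1 in IS only, with overlapping rats. The 3 genes differed by less than their spread there (15.2 ± 10.2, 13.4 ± 7.80 and 10.4 ± 0.598 TPM).

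IS replicate 4 was the highest of all 11 rats for 7 members (Hmox1, Blvrb, Cd163, Hp, Hpx, Lrp1 and Slc48a1) and the lowest for Hmox2. Without this rat, 4 members were called higher in IS against Normal (Hmox1, Blvrb, Cd163 and Slc48a1), Blvra and Hp were not, and Hpx was not tested. The share of all genes called higher was 20% without it. The rat also had the highest sum of the microglia and macrophage markers (5315 TPM) and of the border macrophage markers (1436 TPM). Of all 11 rats, it had the lowest sums of the neuron (809 TPM), striatal neuron (1488 TPM), astrocyte (3964 TPM) and oligodendrocyte markers (6567 TPM). The part of this tissue composition in the member values was not tested. It was the smallest IS library, with 7448205 counted reads.

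The sequence just before the transcription start is shown for Hmox2, Blvrb and Cd163, of which Hmox2 was not called in IS, Blvrb rose by a log2 fold change of 1.00 and Cd163 by 4.34. Promoter windows of 250 bases before the start came from a table of RefSeq promoters (build GRCr8, whereas the counts use mRatBN7.2), in which 7 of the 10 members were matched to 8 windows. Hmox1, Hp and Slc48a1 were not matched. Capitals mark a match to the core of the antioxidant response element, TGANNNNGC on either strand, the element that NRF2 with a small MAF protein binds and BACH1 occupies in its place. The windows lie at chr10:11337613-11337862 (minus strand), chr1:91866008-91866257 (plus strand) and chr4:158770524-158770773 (plus strand).
Hmox2: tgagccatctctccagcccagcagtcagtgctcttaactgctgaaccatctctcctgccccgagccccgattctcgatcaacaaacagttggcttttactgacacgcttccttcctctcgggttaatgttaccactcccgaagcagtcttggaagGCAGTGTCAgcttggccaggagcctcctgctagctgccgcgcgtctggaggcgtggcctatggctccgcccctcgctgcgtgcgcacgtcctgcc
Blvrb: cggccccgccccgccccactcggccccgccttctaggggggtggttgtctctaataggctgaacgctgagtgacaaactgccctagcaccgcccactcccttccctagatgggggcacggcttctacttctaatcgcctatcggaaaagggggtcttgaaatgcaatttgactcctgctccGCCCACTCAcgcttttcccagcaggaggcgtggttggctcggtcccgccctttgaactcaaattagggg
Cd163: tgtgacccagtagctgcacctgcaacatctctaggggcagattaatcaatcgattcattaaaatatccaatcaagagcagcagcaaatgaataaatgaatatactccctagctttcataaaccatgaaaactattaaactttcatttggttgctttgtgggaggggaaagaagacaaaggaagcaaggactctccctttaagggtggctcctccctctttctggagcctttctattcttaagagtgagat

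The match in Hmox2 was GCAGTGTCA, 95 bases before the start on the reverse strand, and in Blvrb GCCCACTCA, 69 bases before the start on the reverse strand. Cd163 held none of the 6 motifs searched. Blvra, Hpx and Lrp1 also held the TGANNNNGC core, Lrp1 in 2 places, as did 34.7% of all 33469 windows of this length. AP-1 (TGANTCA, in 6.34% of all windows), the E-box (CACGTG, 5.59%) and a heat shock type motif (GAANNTTC, 7.23%) were found in no member window. A C/EBP type motif (TTGCNNAA, 9.22%) was found in Hpx, and a STAT type motif (TTCNNNGAA, 7.67%) in Flvcr1 and in the second window of Hmox2. Such letters describe the window and do not show a bound site. The core was present in genes that were called in IS (Blvra and Blvrb) and in genes that were not (Hmox2 and Lrp1).

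The severity comparison, IS against IC, gave a positive log2 fold change for all 9 members other than Hpx, of which Lrp1 and Flvcr1 turned negative when 1 rat was left out. In 5 of them (Hmox1, Blvrb, Cd163, Hp and Slc48a1) every IS rat exceeded every IC rat by normalised CPM, as in 19.2% of all genes tested. None of the 10 was called, and neither was any other gene (0% in either direction), although 10.5% of the genes, and 5 members, were higher at an unadjusted p under 0.05. Hmox1 differed by 1.64 (standard error 0.35, adjusted p = 0.143), Cd163 by 1.99 (standard error 0.55, adjusted p = 0.148) and Blvrb by 0.79 (standard error 0.22, adjusted p = 0.148). Slc48a1 differed by 0.54 (adjusted p = 0.167) and Hp by 1.65 (adjusted p = 0.214). Without IS replicate 4, Hp differed by 0.88 (adjusted p = 0.607) and Cd163 by 1.40 (adjusted p = 0.474). For the members that did not separate, the 95% intervals were -0.29 to 0.44 for Hmox2, -0.24 to 0.57 for Lrp1, -0.46 to 0.69 for Flvcr1 and -0.49 to 1.29 for Blvra.

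These calls depended on the test. Without IS-HA replicate 2, whose group is not part of this comparison but shares the estimate of the spread, Hmox1 (adjusted p = 0.0243), Blvrb (0.0214) and Cd163 (0.0390) were called higher in IS than in IC, beside 6.38% of all genes. DESeq2's Wald test called the same genes (adjusted p = 0.00144, 0.0309 and 0.0144), beside 3.05% of all genes. A limma voom fit with a weight per rat called Hmox1 and Blvrb (adjusted p = 0.0209 and 0.0217), beside 6.26%. Over the 21 alternatives the adjusted p of Hmox1 ranged from 0.00144 to 0.516.

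The aspiration comparison, IS-HA against IS, gave a negative log2 fold change for 7 of the 9 members other than Hpx, with a median of -0.44 beside 0.05 over all genes tested. By normalised CPM, every IS-HA rat lay below every IS rat for 2 of these (Hmox1 and Slc48a1), as for 5.42% of all genes. By TPM, Blvrb separated as well, and 6.37% of all genes did. None of the 10 was called lower, and 0% of all genes were, while 3.36% of the genes, and 2 members, were lower at an unadjusted p under 0.05. Hmox1 differed by -1.34 (standard error 0.35, unadjusted p = 0.00275, adjusted p = 0.499), that is 2.53-fold lower after aspiration. Slc48a1 differed by -0.60 (standard error 0.19, unadjusted p = 0.00838, adjusted p = 0.540). Blvrb differed by -0.44. Cd163 (-0.90) and Hp (-0.84) overlapped between the groups on both scales, and single rats moved both values. Hp ranged from -2.11 without IS-HA replicate 2 (adjusted p = 0.0640) to -0.08 without IS replicate 4, and Cd163 from -1.55 without IS-HA replicate 3 to -0.32 without IS replicate 4. Blvra (0.21) and Hmox2 (0.07) were on the other side of 0, a sign that turned for both when IS-HA replicate 2 was left out. DESeq2 called Hmox1 lower (adjusted p = 0.0364, beside 0.14% of all genes), and voom with weights called Hmox1 and Blvrb lower (0.0477 and 0.0455, beside 1.04%). Without IS-HA replicate 2, Blvrb was called lower (-0.75, adjusted p = 0.0381, beside 0.975%), while Hmox1 was not (-1.52, adjusted p = 0.0521). IS against IC and IS-HA against IS share the IS rats, so their mirrored signs are not separate evidence.

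**Figure D3:**
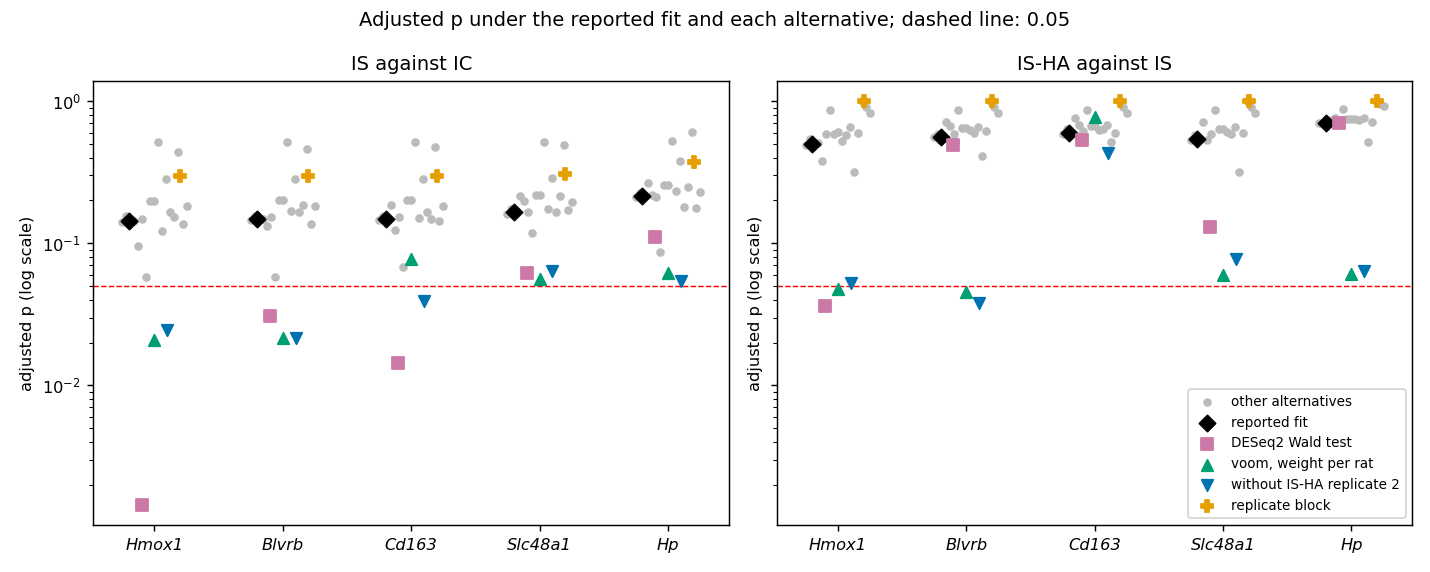
Adjusted p (logarithmic axis) of 5 members in IS against IC (left) and IS-HA against IS (right), under the reported edgeR fit (black) and each alternative. The dashed line is 0.05. In IS against IC, Hmox1 lies at 0.143 in the reported fit and at 0.00144 with DESeq2's Wald test, the lowest point of the plot.

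In whole tissue, more cells of a type and more RNA per cell cannot be told apart, so the members were set beside cell markers. The 12 microglia and macrophage markers summed to 278 to 395 TPM in Normal, 2310 to 3067 TPM in IC, 4106 to 5315 TPM in IS and 2998 to 4895 TPM in IS-HA. Of the 12, 11, 10 and 11 were called higher against Normal in IC, IS and IS-HA, where 13%, 24.8% and 19.5% of all genes tested were. In IS, 1 of the 12 had a negative log2 fold change. Tmem119 had 31.4 and 21.4 TPM in Normal and 20.3, 23.2 and 17.3 TPM in IS. The largest parts of the sum in IS replicate 4 were Tyrobp (1626 TPM) and C1qb (1159 TPM). None of the 12 was at 0 in any rat. The 10 border and perivascular macrophage markers, the class in which Cd163 is a usual marker, summed to 31.1 to 34.6 TPM in Normal, 250 to 606 TPM in IC, 465 to 1436 TPM in IS and 330 to 567 TPM in IS-HA. The 8 infiltrating monocyte markers in the table summed to 38.8 to 39.4, 344 to 749, 814 to 1126 and 428 to 957 TPM in the same order of groups. The 12 neutrophil markers summed to 6.73 to 7.21, 279 to 667, 800 to 921 and 535 to 1132 TPM, with Np4 at 0 in every rat and Mpo at 0 in all Normal, IC and IS rats. The part of these cells in the member differences was not tested.

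Relative to the microglia and macrophage sum, the members separated. Hmox1 was 2.22% ± 0.204 of that sum in Normal (SD, n = 2), 36.3% ± 8.51 in IC, 64.8% ± 9.28 in IS and 33.4% ± 9.84 in IS-HA (n = 3 each). All IS rats (57.1% to 75.1%) were above all IC and IS-HA rats. Cd163 was 0.211% of the sum in Normal, 0.124% in IC, 0.286% in IS and 0.224% in IS-HA, and the rats of all groups overlapped. Slc48a1 stood at 94.3% in Normal and at 6.90% to 16.1% in the hemorrhage rats, and Blvrb at 8.95% in Normal and 1.28%, 1.27% and 1.15% in IC, IS and IS-HA. In the same order of groups, Blvra stood at 3.04%, 0.70%, 0.53% and 0.73%, and Hp at 0.55%, 0.19%, 0.32% and 0.20%. By TPM, each of these genes was above both Normal rats in every hemorrhage rat. Their lower percent therefore comes with the larger marker sum and gives no level per macrophage. In the Normal rats, Slc48a1 at 303 and 310 TPM stood beside marker sums of 395 and 278 TPM. With Aif1, Csf1r, Itgam and Tyrobp alone as the markers, Hmox1 was 7.14%, 107%, 183% and 101% of the sum in Normal, IC, IS and IS-HA, in the same order of IS above the others. Other marker sums did not keep every IS rat on top. Relative to the monocyte sum, IS-HA replicate 3 (1455 beside 428 TPM) stood above IS replicate 2 (2346 beside 814 TPM). Relative to the border macrophage sum, IC replicate 2 (719 beside 250 TPM) stood above IS replicate 4 (3992 beside 1436 TPM).

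**Figure D4:**
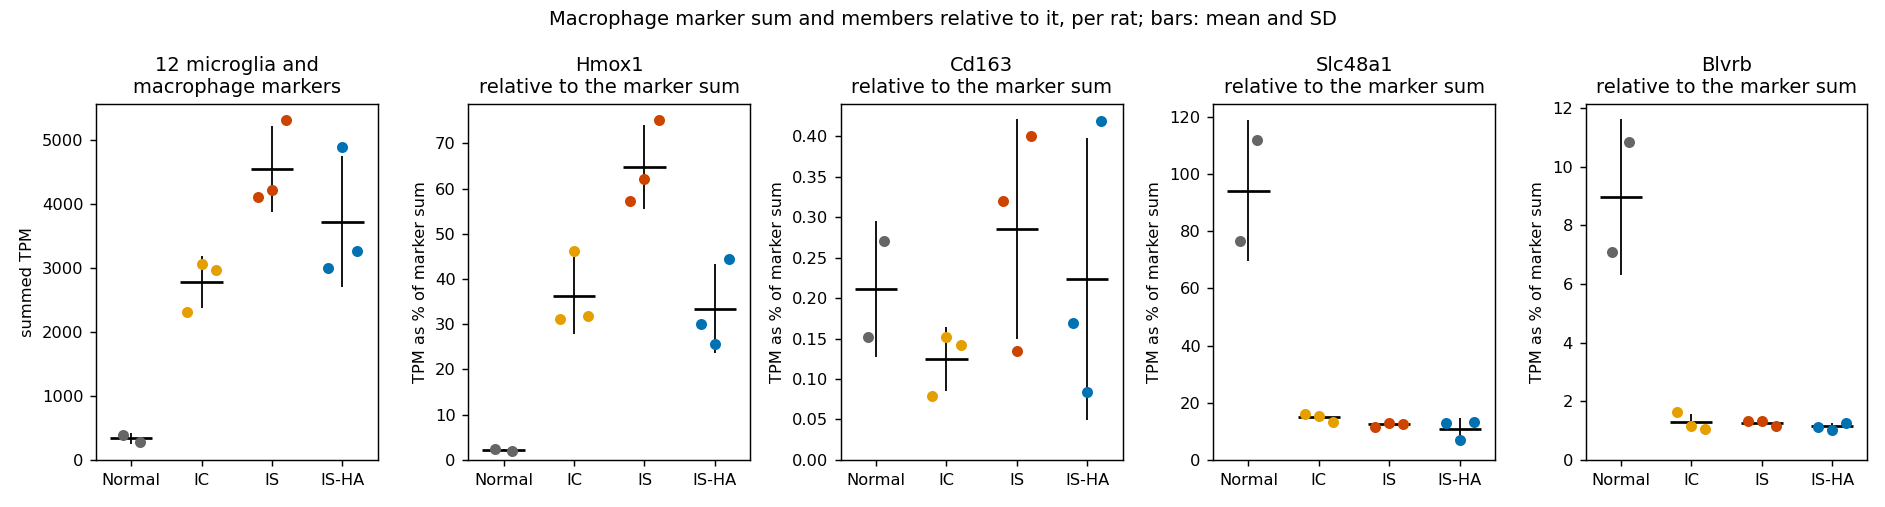
Left, the summed TPM of 12 microglia and macrophage markers in each rat, and right, the TPM of 4 members as a percent of that sum, by group. Points are rats, horizontal bars means and vertical bars SD, on linear axes from 0. Relative to the markers, Hmox1 is highest in the IS rats (57.1% to 75.1%), Slc48a1 and Blvrb are highest in the Normal rats, and Cd163 overlaps between groups.

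The hemoglobin transcripts that were counted, a trace of red cells and reticulocytes in the sample, did not follow Hmox1. Of the 9 hemoglobin genes of the table, 6 had no reads in any rat, and Hbq1b, a theta-globin gene, made up 71.1% to 80.0% of the summed TPM of Hbq1b, Hbb and Hba-a3. Near-identical copies make single genes uncertain. Of 16 erythroid and hemoglobin symbols looked for, 11 were found. The alpha-globin symbols Hba-a1 and Hba-a2 were not, so the sum can miss their transcripts. The genes summed to 191 and 213 TPM in Normal, 139, 158 and 662 TPM in IC, 107, 168 and 180 TPM in IS, and 109, 110 and 56.2 TPM in IS-HA. IC replicate 4 had the highest sum with 941 TPM of Hmox1, and IS replicate 4 had 180 TPM of hemoglobin transcripts with 3992 TPM of Hmox1. These transcripts are not a measure of the hemoglobin protein in the hematoma.

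The other genes of heme handling were examined in 5 lists, whose counts stand beside 13%, 24.8% and 19.5% of all genes called higher in IC, IS and IS-HA, and 4.64%, 24.2% and 12.1% called lower. Among 11 regulators of Hmox1, 4 were called higher in IC against Normal, 5 higher and 2 lower in IS, and 5 higher and 1 lower in IS-HA. In IC these were Atf3 (log2 fold change 3.69, a stress-induced factor), Maff (2.87, a small MAF protein), Nfe2l2 (1.22, which encodes NRF2) and Spic, the heme-responsive macrophage factor. In IS, Atf3 had 4.87 (adjusted p = 8.63e-05), Maff 3.71 (adjusted p = 0.000704) and Bach2, a relative of the heme-sensing repressor BACH1, -2.69 (adjusted p = 0.00143). In IS-HA, Atf3 had 4.47, Maff 3.04 and Nr1d1, the heme-binding clock repressor REV-ERBα, -1.47. Nfe2l2 had 27.7 and 21.7 TPM in Normal, 49.4 to 77.2 in IC, 66.1 to 78.6 in IS and 46.6 to 64.9 in IS-HA. Spic was at 0 and 0.305 TPM in the Normal rats and at 1.29 to 6.40 TPM in the hemorrhage rats, so no fold is given for it.

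Of 9 heme synthesis genes, Ppox (protoporphyrinogen oxidase) was called higher in IS (log2 fold change 0.83) and in IS-HA (0.92). Alas1, the rate-limiting enzyme outside the red cell lineage, was called lower in IS (log2 fold change -0.98, adjusted p = 0.00515). Its levels were 19.4 and 21.9 TPM in Normal and 9.37 to 11.5 TPM in IS. The other genes of this list were not called, which left 9, 7 and 8 of 9 without a call in IC, IS and IS-HA.

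Of 11 heme transport and binding genes tested, 1 was called higher in IC, 4 higher and 1 lower in IS, and 3 higher in IS-HA. Hebp1, a heme-binding protein, was called in each (1.42, 2.47 and 2.08), and Hebp2 in IS (1.95) and IS-HA (1.98). In IS, Flvcr2, a relative of Flvcr1, had 1.40, and the heme and folate carrier Slc46a1 had 0.84 in IS and 0.65 in IS-HA. The gene called lower in IS was Pgrmc1, a heme-binding membrane protein (-0.44), which is named after its values were seen. Of 7 scavenger receptor partners tested, Cd14 had 5.55, 6.68 and 6.08 in IC, IS and IS-HA, and Adam17, the protease known to shed CD163, had 1.06, 1.49 and 1.03, all called. Lrp2 was called lower in IS (-1.46). Cd36 was called higher in IS, from 0.0199 and 0 TPM in Normal to 0.415 to 3.59 TPM, and no fold is given for it.

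Of 7 genes of bilirubin handling and carbon monoxide targets, none was called in IC, 1 was called higher and 4 lower in IS, and 2 lower in IS-HA. The subunits of soluble guanylate cyclase, a target of carbon monoxide and nitric oxide, were Gucy1a1 (-2.29 in IS, adjusted p = 0.00137, and -1.98 in IS-HA) and Gucy1b1 (-2.02, adjusted p = 0.00454, and -1.67). The organic anion exporters Abcc1 (-1.58) and Abcc2 were called lower in IS. Abcc2 went from 0.870 and 0.889 TPM in Normal to 0.0316 to 0.397 TPM in IS, so no fold is given for it. The gene called higher in IS was Por, the reductase that feeds electrons to heme oxygenase (1.34, adjusted p = 0.00329), which the naming rule left out and which is named after its values were seen. The guanylate cyclase subunits are abundant in striatal neurons, whose markers were also lower, with 9 of 10 called lower in IS and in IS-HA, and the part of this was not tested. No gene of the 5 lists was called in IS against IC or IS-HA against IS.

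**Figure D5:**
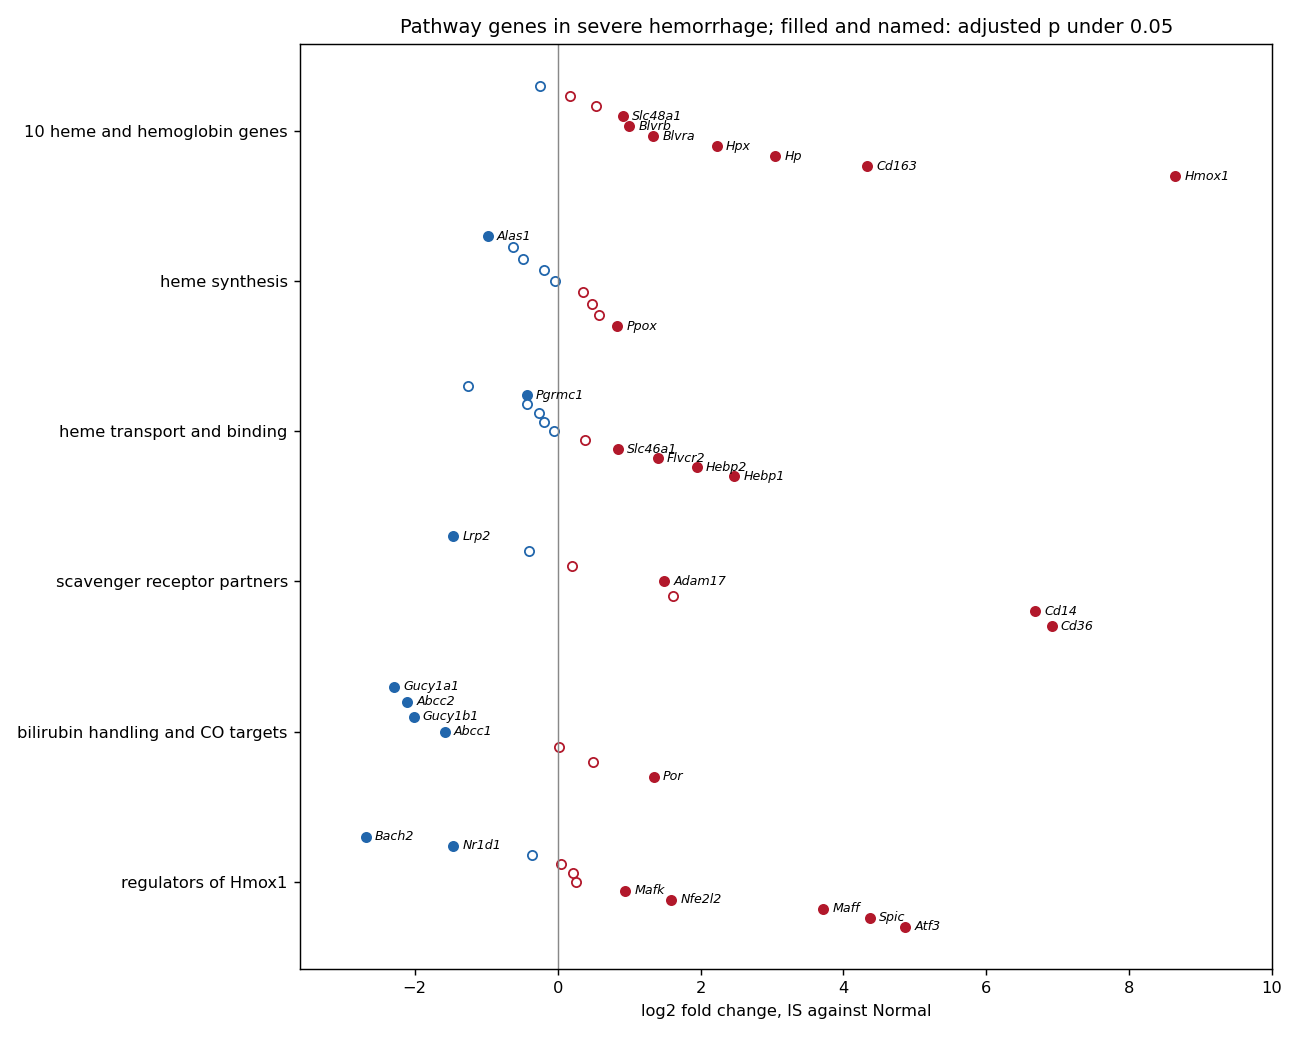
Fitted log2 fold change in IS against Normal of the 10 members and of 5 further lists of heme genes, 1 point per gene tested, red above 0 and blue below 0. Genes with an adjusted p under 0.05 are filled and named. Hmox1 (8.65) lies farthest to the right, and the positions of Cd36, Spic and Hpx rest on very few reads in Normal. Hpx also passed the read filter only through IS rats.

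Over the 9 rats with hemorrhage, the members did not vary as 1 block. The correlation of log2 CPM was 0.94 between Hmox1 and Slc48a1, 0.85 between Hmox1 and Blvrb and 0.91 between Hp and Blvrb, but -0.15 between Hmox1 and Hmox2 and 0.29 between Hmox1 and Flvcr1. Hmox2 ran against Lrp1 (-0.78) and Flvcr1 (-0.76). These values describe 9 rats of 3 groups that share treatment and tissue composition, so they carry no p. Among 10582 genes with a mean of at least 10 CPM in those rats, the genes most like Hmox1 were Cdk4 (0.992), Socs3 (0.982) and Ptpn1 (0.980). The genes most like Slc48a1 were Arap1 (0.975), Slc39a8 (0.975) and Aph1a (0.969). The genes most like Hp were Relb (0.976), Sri (0.974) and Ccdc86 (0.969), and those most like Cd163 were Pgap6 (0.965), Dcn (0.962) and Ppp5c (0.952). Flvcr1 was most like Cdh5 (0.966), the endothelial cadherin, Tmtc4 (0.944) and Cttnbp2nl (0.943).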

How the data were processed

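Bulk RNA-seq of striatum (ipsilateral in IC, IS and IS-HA) was analysed from 11 rats in 4 groups, 1 library per rat. Per the labels, the libraries were poly(A)-selected and stranded. The submitters' processing notes name fastp 0.20.0, FastQC 0.11.9, HISAT2 2.1.0, SAMtools 1.9, featureCounts of Subread, DESeq2 and the build mRatBN7.2. The strand setting of the counting is not given in the sources used here. The authors deposited raw counts and TPM per gene, and both were used as deposited. No value column was left unmatched to a rat (0). TMM normalization and filterByExpr were followed by the quasi-likelihood F test of edgeR 4.0.16 (R 4.3.3) over all 4 groups, with Benjamini-Hochberg adjustment over 15742 genes. Standard errors were derived from the F statistic. A read filter of 0.913 CPM in at least 2 rats decided which genes were tested. No libraries held identical counts. Alternatives were other normalizations, filters, tests (DESeq2 1.42.0, limma 3.58.1), a replicate block, and each rat left out. The scripts were tested on simulated data. All members are named. Of each other list, at most the 4 called genes with the largest absolute log2 fold change per comparison could be named, and for likeness the 3 most correlated genes. For symbols carried by several genes (Mafk, Hbq1b), the gene with the most counts was used. The members and lists were chosen with earlier results of these data known. Of the heme lists, 2 genes are not reported here.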

Additional observations from a re-analysis of the deposited data

How the results depend on the processing

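Hmox1 against Normal and the absence of members called lower against Normal held in every alternative tried. The genes called in IC against Normal, 2770 as reported, were 6211 with voom and weights per rat, 5627 with only the compared groups, and 834 to 5291 with 1 rat left out. Members called higher there were 1 with voom, 1 with limma on log2(TPM + 1), 4 with only the compared groups, and 1 to 2 with 1 rat left out. In IS against Normal, 7710 genes and 7 members (6 without Hpx) were called as reported. With 1 rat left out there were 3960 to 9453 genes and 2 to 7 members, Hpx counted where it was called. With only the compared groups there were 8215 genes and 8 members, Hpx included. In IS-HA against Normal, 4965 genes and 3 members became 2422 genes with only the compared groups, and 1580 to 5259 genes and 1 to 5 members with 1 rat left out. In IS against IC, 0 genes and members became 977 and 3 with DESeq2, 1883 and 2 with voom, and 0 to 2241 and 0 to 3 with 1 rat left out. In IS-HA against IS, 1 gene and 0 members lower became 71 and 1 with DESeq2, 430 and 2 with voom, and 0 to 695 and 0 to 1 with 1 rat left out, while DESeq2's size factors, library size alone, limma on log2(TPM + 1) and only the compared groups gave 0 genes. On CPM in place of TPM, the Hmox1 share was 6.59%, 91.4%, 96.9% and 92.3% in Normal, IC, IS and IS-HA. The cause of these shifts was not tested.

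Replicate numbers were not treated as pairs in the reported fit. The mean correlation of same-numbered deviations from the group means was 0.0335 between IC and IS (3 pairs, from -0.321 to 0.339). Between IS and IS-HA it was -0.269 (2 pairs). So few pairs, with deviations taken from means of 2 or 3 rats, cannot show whether the numbers pair the rats. With the replicate block, the genes called were 839, 2787, 2416, 0 and 0 in IC, IS and IS-HA against Normal, IS against IC and IS-HA against IS, and the members called were 1, 2, 2, 0 and 0.

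Of the log2 fold changes of single members, 17 changed sign, none of them called. The range with 1 rat left out is given in parentheses. For Lrp1 in IC against Normal it was -0.0156 with DESeq2's size factors, -0.0156 with DESeq2, -0.0206 with voom, -0.0884 with the replicate block, -0.0539 without Normal replicate 1 and -0.0428 without IC replicate 3 (-0.0539 to 0.0754). Lrp1 was 0.0433 in IS-HA against Normal with library size alone (-0.247 to -0.00749) and -0.000755 in IS against IC without IS replicate 4 (-0.000755 to 0.244). Blvrb was -0.108 in IC against Normal with the replicate block (0.173 to 0.228). Flvcr1 was -0.0785 in IS against IC without IC replicate 4 (-0.0785 to 0.363). In IS-HA against IS, Hmox2 was -0.104 with voom, -0.0196 without IS replicate 4 and -0.0434 without IS-HA replicate 2 (-0.0434 to 0.179), Blvra was -0.146 without IS replicate 3 and -0.307 without IS-HA replicate 2 (-0.307 to 0.485), and Flvcr1 was 0.0563 with voom and 0.0392 without IS-HA replicate 2 (-0.399 to 0.0392). Hpx had the fewest reads of the members, and it was not tested under the filters that no longer admitted it. The planned comparison of the HMOX1 and HMOX2 proteins was not run.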
